A study of Vitis vinifera with 3 samples.

Results

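Grapevine berries were compared at places where methylation differed between stages of ripening in both the CG and the CHG context, H being A, C or T. The members are CG and CHG pairs: a CG region on a numbered chromosome that shares at least 1 bp with a CHG region listed for the same comparison of stages. There were 2040 such pairs among the 377997 regions of the 9 deposited tables: 741 for véraison against first growth, 531 for maturity against véraison and 768 for the mature stage against first growth. At véraison a berry turns soft and takes on its colour.

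All samples were whole-genome bisulfite libraries of Vitis vinifera berries, cultivar Fujiminori. Berries were taken at the first growth stage (40 days after flowering), at véraison (65 days) and at the mature stage (90 days), with 1 library for each stage and no treatment named in the labels. The protocol, in a sentence on RNA, mentions tissue of 20 berries from 10 bunches at each time, so a library may pool berries. A value is the average methylation level of a region in 1 library, in percent, as rounded by the authors. There were no replicates, so no difference between stages was tested, and the reads behind each level are unknown. All regions were listed because their level differed between 2 libraries, so the existence of a difference is not a result here. What can be compared is its direction, its place and, within the limits that the listing sets, its size. Intervals given for shares are exact Clopper-Pearson 95% intervals. They cover counting error over regions only, and neighbouring regions are not independent.

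In plants, CG methylation is copied after DNA replication by MET1-type methyltransferases, which read the methylated partner strand. CHG methylation is kept by chromomethylases of the CMT3 type, which are guided by histone H3 lysine 9 methylation. Where CG and CHG are methylated together, as in transposons and repeats, the site usually lies in silent heterochromatin, whereas methylation of the bodies of active genes is mostly CG alone. DNA glycosylases of the DEMETER family remove methylated cytosine in any context, and in tomato, another fleshy fruit, such an enzyme is needed for ripening.

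At véraison against first growth, most of these places were less methylated at véraison in both contexts. Of the 741 pairs, 564 were lower in both (76.1%, interval 72.9 to 79.1%), 169 were higher in both (22.8%, 19.8 to 26.0%) and 8 went opposite ways. When both regions had to reach the median length of their table, 13.5% of pairs were higher in both (9.66 to 18.2%, n = 266). Over the whole tables, 18.8% of CG regions and 40.5% of CHG regions were higher at véraison. CG regions with a CHG partner were higher at véraison in 24.2% of cases (21.0 to 27.7%, n = 657), and those without a partner in 17.8% (16.6 to 19.1%, n = 3822). For CHG the order was turned round: 24.1% of those with a CG partner were higher (20.9 to 27.6%, n = 667), compared with 42.0% of those without (40.8 to 43.1%, n = 7327). The split of the pairs therefore lay nearer to that of the CG table.

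At maturity against véraison, higher pairs were the more common. Of the 531 pairs, 311 were higher at maturity in both contexts (58.6%, interval 54.2 to 62.8%), 214 were lower in both (40.3%, 36.1 to 44.6%) and 6 went opposite ways. In the whole tables, 53.1% of CG regions and 49.7% of CHG regions were higher at maturity, and 46.9% and 50.3% were lower. Among CHG regions the share was 59.5% with a CG partner (54.9 to 64.0%, n = 467) and 49.04% without (47.8 to 50.2%, n = 6844).

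Maturity against first growth again held mostly lower pairs, 525 of 768 (68.4%, interval 64.9 to 71.6%), with 227 higher in both contexts (29.6%, 26.3 to 32.9%) and 16 opposite. When both regions had to reach the median length, 18.5% of pairs were higher in both (14.1 to 23.7%, n = 275). Here 20.7% of all CG regions and 39.8% of all CHG regions were higher at maturity, and 79.3% and 60.2% were lower. CG regions with a CHG partner were higher in 28.8% of cases (25.4 to 32.4%, n = 677), and those without in 19.3% (18.2 to 20.6%, n = 4140). Each library enters 2 of the 3 comparisons, so the comparisons are not independent of each other.

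The pairs joined several overlapping regions at some places. The 741 pairs of véraison against first growth came from 657 CG and 667 CHG regions and merged into 589 separate places, with a median span of 412 bp. The pairs at maturity merged into 406 places against véraison and 607 against first growth. Of the merged places of véraison against first growth, 437 held lower pairs alone, 144 higher pairs alone and 8 an opposite pair. A CG region met as many as 4 CHG regions. Of the 73 CG regions with 2 or more CHG partners at véraison against first growth, all 73 had partners of 1 direction, and the partners' differences spread over a median of 3 percentage points. At maturity this was so for 64 of 64 against véraison and for 74 of 79 against first growth.

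CG and CHG levels in the pairs were alike at both ends of the change. Among pairs of 1 direction, the CG median was above the CHG median in both libraries of every class and comparison, with 1 exception. In pairs higher at véraison than at first growth, CHG had the higher median at véraison. In lower pairs of véraison against first growth, the median CG level was 17.5% at véraison and 39.5% at first growth, and the median CHG level was 13% at véraison and 36% at first growth. The higher pairs had a median CG level of 36% at véraison and 16% at first growth, and a median CHG level of 39% at véraison and 12% at first growth. Few pairs went to or from a level near 0 in both contexts: in 86 of 741 both were at 5% or below in the less methylated library. Most of these places thus had a level above 5% in at least 1 context in both libraries. In CHG alone, the lower quartile of the higher pairs was 4% at first growth.

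**Figure D1:**
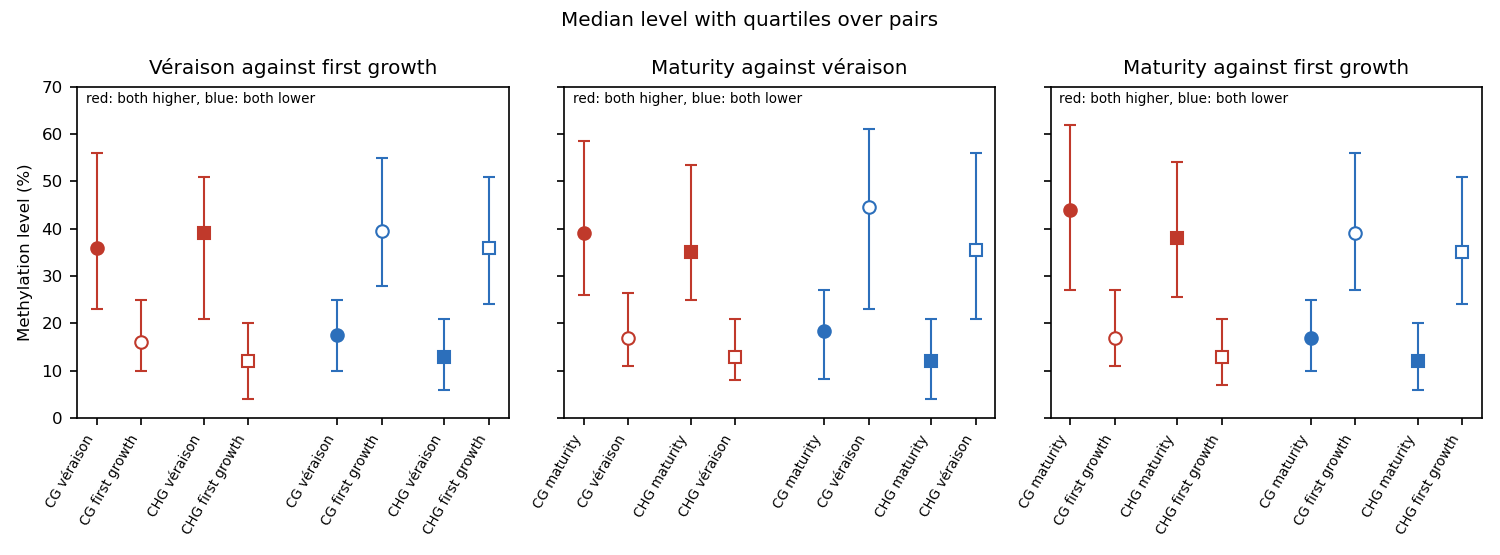
Median methylation level in percent (y axis) of CG regions (circles) and CHG regions (squares) in the pairs, with quartiles as bars, for pairs higher in both contexts (red) and lower in both (blue); filled symbols are the later and open symbols the earlier stage of each comparison. The less methylated stage of each class has medians between 12% and 18.5%, and the more methylated stage between 35% and 44.5%.

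The other comparisons gave similar medians. Pairs higher at maturity than at véraison had CG medians of 39% at maturity and 17% at véraison, and CHG medians of 35% at maturity and 13% at véraison. Lower pairs of that comparison had CG medians of 18.5% at maturity and 44.5% at véraison, and CHG medians of 12% at maturity and 35.5% at véraison. For maturity against first growth, higher pairs had CG medians of 44% at maturity and 17% at first growth and CHG medians of 38% and 13% in the same libraries. Lower pairs there had CG medians of 17% at maturity and 39% at first growth, and CHG medians of 12% at maturity and 35% at first growth. The CG level was the higher of the pair at véraison in 507 of 741 pairs (68.4%) of véraison against first growth, and at first growth in 494 (66.7%). CHG stood at least 20 percentage points above CG in 8 of the 741 pairs at véraison and in 22 at first growth. The reverse, CG at least 20 points above CHG, was found in 35 pairs at véraison and in 66 at first growth.

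The size of the difference was nearly the same in both contexts. The 2 differences of a pair lay within 10 percentage points of each other in 629 of 741 pairs (84.9%) of véraison against first growth, in 486 of 531 (91.5%) at maturity set against véraison and in 639 of 768 (83.2%) at maturity set against first growth. The size of the CHG difference minus that of the CG difference had a median of 0 in all 3 comparisons, with quartiles of -4 and 3, -3 and 3, and -4 and 4 percentage points. CHG was the larger in 44.9% (interval 41.3 to 48.6%), 49.7% (45.4 to 54.1%) and 46.1% (42.5 to 49.7%) of pairs in that order of comparisons. Because CHG levels were the lower ones, this did not hold for relative change: on a log2 ratio with 0.01 added to the fraction, CHG was the larger in 73.8%, 77.0% and 76.0% of pairs.

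Across pairs, larger CG differences went with larger CHG differences in each direction. As a description without a test, Pearson's r was 0.77 (Spearman's rho 0.77) over the 564 lower pairs of véraison against first growth and 0.78 (rho 0.87) over its 169 higher pairs. For maturity against véraison r was 0.88 (rho 0.90) over 214 lower pairs and 0.83 (rho 0.83) over 311 higher ones. For maturity against first growth the values were 0.76 (rho 0.80) over 525 lower and 0.82 (rho 0.86) over 227 higher pairs. Both members of a pair come from the same libraries and largely from the same stretch of DNA, and some regions enter several pairs.

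**Figure D2:**
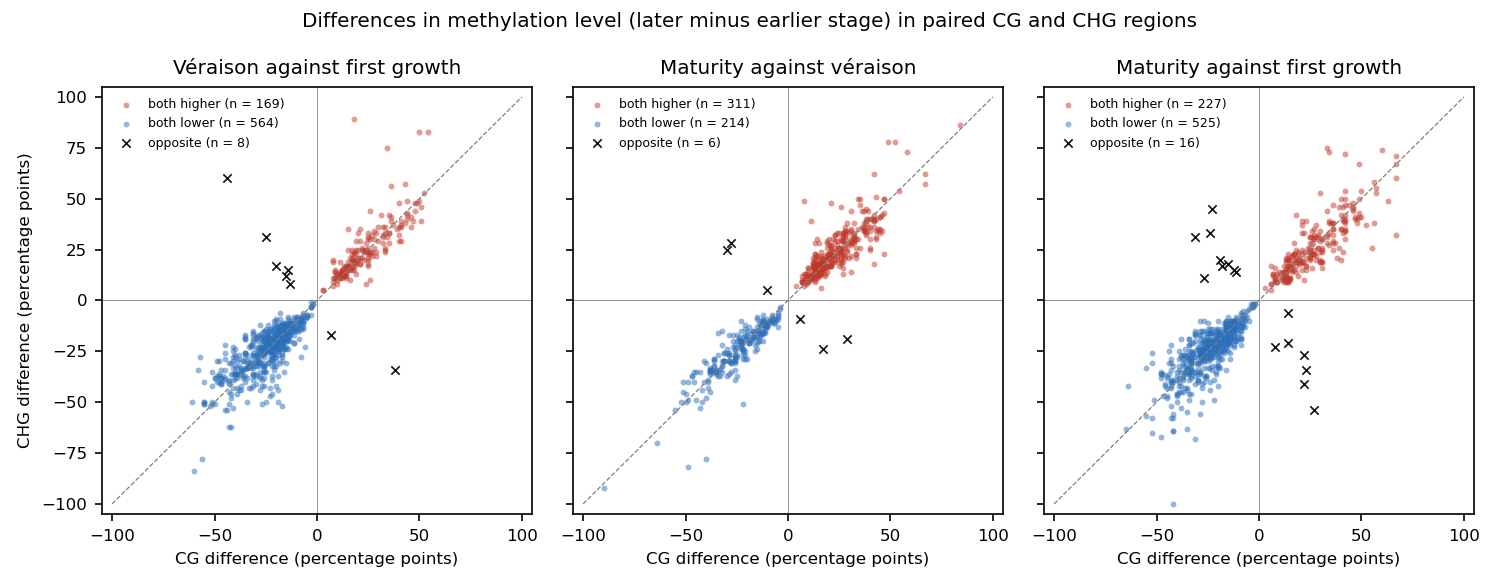
Each point is a CG and CHG pair, with the CG difference (x axis) and the CHG difference (y axis) in percentage points, later minus earlier stage; the dashed line marks equal differences. Of 2040 pairs, 2010 lie in the quadrants of equal sign, close to the line, and 30 (crosses) have opposite signs.

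Places were named by the smaller of their 2 absolute differences, so that both contexts had to move far. At véraison against first growth, the first higher place was on chromosome 14, where CG (26646249 to 26646369) was at 100% at véraison and 46% at first growth and CHG (26646235 to 26646324) at 90% at véraison and 7% at first growth. On chromosome 18, CG (5713210 to 5713396) was at 60% at véraison and 8% at first growth, and CHG (5713184 to 5713400) was at 64% at véraison and 11% at first growth. This was a more even change than the first, with differences of 52 and 53 percentage points and 187 bp shared. The next 3 higher places, on chromosome 4 (CG 7541080 to 7541167), chromosome 3 (CG 10807603 to 10807803) and chromosome 18 (CG 25466938 to 25467138), had CG levels of 93 to 95% at véraison and 42 to 46% at first growth. None of these 5 overlapped a gene model named in the tables.

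Of the 5 lower places of that comparison, 3 overlapped a gene model. The first was on chromosome 2 within VIT_02s0025g04260.t01 (3790318 to 3791112, plus strand), where CG (3790467 to 3790599) was at 11% at véraison and 71% at first growth and CHG (3790479 to 3790541) at 4% at véraison and 88% at first growth. On chromosome 7, within VIT_07s0104g00410.t01, CG (1671592 to 1671821) was at 13% at véraison and 65% at first growth, and CHG (1671718 to 1671795) at 5% at véraison and 57% at first growth. On chromosome 18, a CG region that overlapped VIT_18s0041g00190.t01 (24574625 to 24574790) was at 18% at véraison and 73% at first growth, and CHG (24574551 to 24574811) at 1% at véraison and 52% at first growth. The gene models are known here by identifier only, so their functions are not given. Outside gene models, CG on chromosome 3 (16473561 to 16473835) was at 39% at véraison and 95% at first growth, and CHG (16473564 to 16473682) at 10% at véraison and 88% at first growth. On chromosome 19, CG (180810 to 180965) was at 45% at véraison and 100% at first growth, and CHG (180872 to 180952) at 46% at véraison and 97% at first growth.

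At maturity against véraison the largest changes ran through nearly the whole range. On chromosome 10, CG (14537481 to 14537858) was at 10% at maturity and 100% at véraison, and CHG (14537565 to 14537706) was at 0% at maturity and 92% at véraison. On chromosome 6, CG (11675390 to 11675506) was at 84% at maturity and 0% at véraison, and CHG (11675443 to 11675655) at 86% at maturity and 0% at véraison. A second place on that chromosome had CG (14576821 to 14577205) at 77% at maturity and 19% at véraison, and CHG (14577019 to 14577178) at 73% at maturity and 0% at véraison. At each of these 3 places at least 1 context was at 0% in 1 library, and the number of reads behind these levels is unknown. On chromosome 8, within VIT_08s0032g00590.t01 (3917600 to 3921496, minus strand), the CG region (3919430 to 3920053) was longer and was at 23% at maturity and 87% at véraison. Its CHG partner (3919458 to 3919805) was at 15% at maturity and 85% at véraison. For that CHG region the authors' deposited table gives p = 3.18e-32. The other lower places lay on chromosome 9 (CG 14227959 to 14228664 and CG 22813735 to 22813910) and chromosome 8 (CG 6409799 to 6410069), with CG levels of 17 to 50% at maturity and 69 to 100% at véraison. Of the remaining higher places, 1 lay on chromosome 13 and ran over the end of VIT_13s0047g00800.t01 (17422325 to 17426461, plus strand). There CG (17425994 to 17426525) was at 84% at maturity and 17% at véraison, and CHG (17426299 to 17426427) at 88% at maturity and 26% at véraison. The other two lay on chromosome 9 (CG 19139725 to 19139942 and CG 14944926 to 14945080), outside named gene models.

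At maturity against first growth, the first higher place was on chromosome 9, where CG (13637512 to 13637642) was at 67% at maturity and 0% at first growth and CHG (13637572 to 13637713) at 71% at maturity and 0% at first growth. At the end of VIT_13s0047g00800.t01 on chromosome 13, the same CG region as above (17425994 to 17426525) was at 84% at maturity and 17% at first growth, and CHG (17426116 to 17426285) at 67% at maturity and 0% at first growth. Its CG level was thus the same in the first growth and véraison libraries. On chromosome 14, within VIT_14s0081g00470.t01 (8447754 to 8448424, plus strand), CG (8448010 to 8448157) was at 90% at maturity and 30% at first growth, and CHG (8448049 to 8448159) at 93% at maturity and 19% at first growth. Of the 5 higher places, these on chromosomes 13 and 14 overlapped a gene model, and the others lay on chromosome 9, on chromosome 3 (CG 7744732 to 7744938) and chromosome 12 (CG 891662 to 891977). The first lower place was on chromosome 9, with CG (1495388 to 1495608) at 0% at maturity and 65% at first growth, and CHG (1495405 to 1495574) at 2% at maturity and 65% at first growth. On chromosome 1, CG (9394626 to 9394977) was at 18% at maturity and 73% at first growth, and CHG (9394693 to 9395127) at 11% at maturity and 68% at first growth. The other 3 lower places were on chromosomes 13, 1 and 3, with CG levels of 45 to 48% at maturity and 97 to 100% at first growth. None of the 5 lower places overlapped a named gene model.

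Differences of 50 percentage points or more in both contexts were rare: 14 of 741 pairs (1.89%), 11 of 531 (2.07%) and 12 of 768 (1.56%). In the whole tables, 3.75%, 4.53% and 4.03% of CG regions and 5.22%, 4.17% and 5.49% of CHG regions reached that size in their own context.

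Places listed in both contexts in every comparison were followed through development. Each of them was chosen for differing 3 times, and the comparisons share libraries. The authors drew the regions anew for each comparison, so bounds differ. On chromosome 3, CG was at 10% at véraison and 22% at first growth (3447812 to 3448154), at 5% at maturity and 11% at véraison (3447865 to 3448039), and at 6% at maturity and 21% at first growth (3447792 to 3448151). Its CHG levels were 10% at véraison and 22% at first growth (3447881 to 3448052), and 7% at maturity and 22% at first growth (3447820 to 3448046). In a shorter CHG region (3447864 to 3447919) they were 10% at maturity and 19% at véraison, so the CHG level at véraison depended on the bounds. On chromosome 14 the order was upward: CG was at 23% at véraison and 11% at first growth (629306 to 629576), at 40% at maturity and 18% at véraison (628964 to 629474), and at 33% at maturity and 13% at first growth (628970 to 629552). The CHG regions there were at 18% at véraison and 5% at first growth (629339 to 629525), and at 24% at maturity and 5% at first growth (629234 to 629506). A further CHG region (629234 to 629393) was at 32% at maturity and 10% at véraison.

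On chromosome 1, véraison was the low point. CG was at 21% at véraison and 42% at first growth (8536547 to 8537103), at 44% at maturity and 17% at véraison (8536460 to 8536916), and at 51% at maturity and 24% at first growth (8536516 to 8536675). The CHG levels followed, with 3% at véraison and 23% at first growth (8536629 to 8536805), and 39% at maturity and 7% at véraison (8536462 to 8536890). A further CHG region (8536494 to 8536690) was at 54% at maturity and 19% at first growth. On chromosome 15 the bounds decided the reading: CG was at 66% at véraison over 3750674 to 3751011, but at 23% at véraison over 3750398 to 3750757, which reaches further to the left. There the level was 51% at maturity in the left region and 33% at first growth in the right one. A CG region between them (3750593 to 3750860) was at 53% at maturity and 26% at first growth. CHG was at 51% at véraison and 15% at first growth (3750676 to 3750841). It was at 54% at maturity and 23% at véraison (3750561 to 3750720), and at 52% at maturity and 22% at first growth (3750584 to 3750834). None of the 4 places overlapped a named gene model.

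The 2 contexts went the same way where regions overlapped well, and less often where they barely touched. With 200 bp or more in common, 263 of 263 pairs had the same direction at véraison against first growth (interval 98.6 to 100%), 136 of 136 at maturity against véraison (97.3 to 100%) and 291 of 292 at maturity against first growth (lower bound 98.1%). With 1 to 24 bp in common the counts were 11 of 13 (84.6%, 54.6 to 98.1%), 9 of 12 (75%, 42.8 to 94.5%) and 11 of 19 (57.9%, 33.5 to 79.7%). Of all 30 opposite pairs, 21 shared under 50 bp (70%, 50.6 to 85.3%), compared with 95 of 2010 pairs of 1 direction (4.73%, 3.84 to 5.75%). Opposite pairs thus mostly shared a short stretch. The CHG region lay wholly within the CG region in 2 of 8 opposite pairs of véraison against first growth and in 2 of 16 of maturity against first growth. Among pairs of 1 direction this was so for 394 of 733 (53.8%) and 394 of 752 (52.4%). At maturity against véraison it was so for 0 of 6 opposite pairs and for 281 of 525 pairs of 1 direction (53.5%).

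Just outside the rule, CG and CHG regions that did not overlap had no such uniform direction. With a gap of at least 100 and under 200 bp between them, 28 of 63 combinations had the same direction at véraison against first growth (44.4%, 31.9 to 57.5%), 25 of 43 at maturity against véraison (58.1%, 42.1 to 73.0%) and 32 of 68 at maturity against first growth (47.1%, 34.8 to 59.6%). Directions drawn independently, by each whole table's shares of higher and lower regions, would match in 55.95%, 49.98% and 55.99% of combinations, in that order. The interval for gaps of at least 100 and under 200 bp included this share in every comparison. So did the interval for pairs with 1 to 24 bp in common. For pairs with 200 bp or more in common, the lower bounds of 98.6%, 97.3% and 98.1% lay above it. This share is a point of reference and not a test. Regions with a partner had other shares of higher ones than the whole tables, and some regions enter several combinations. With a gap of 0 to 24 bp the counts of the same direction were 10 of 16, 9 of 12 and 11 of 19. A pair just inside, with 2 bp in common on chromosome 4, had CG (20661175 to 20661616) at 41% at véraison and 84% at first growth, and CHG (20661615 to 20661687) at 36% at véraison and 81% at first growth. A combination just outside, abutting on chromosome 2, had CG (2656484 to 2656708) at 9% at véraison and 54% at first growth, and CHG (2656283 to 2656483) at 7% at véraison and 40% at first growth. Another, on chromosome 18, had CG (14202399 to 14202649) at 36% at maturity and 13% at véraison, but CHG (14202159 to 14202398) at 19% at maturity and 39% at véraison. Combinations just outside the rule thus held both agreeing and opposite directions.

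**Figure D3:**
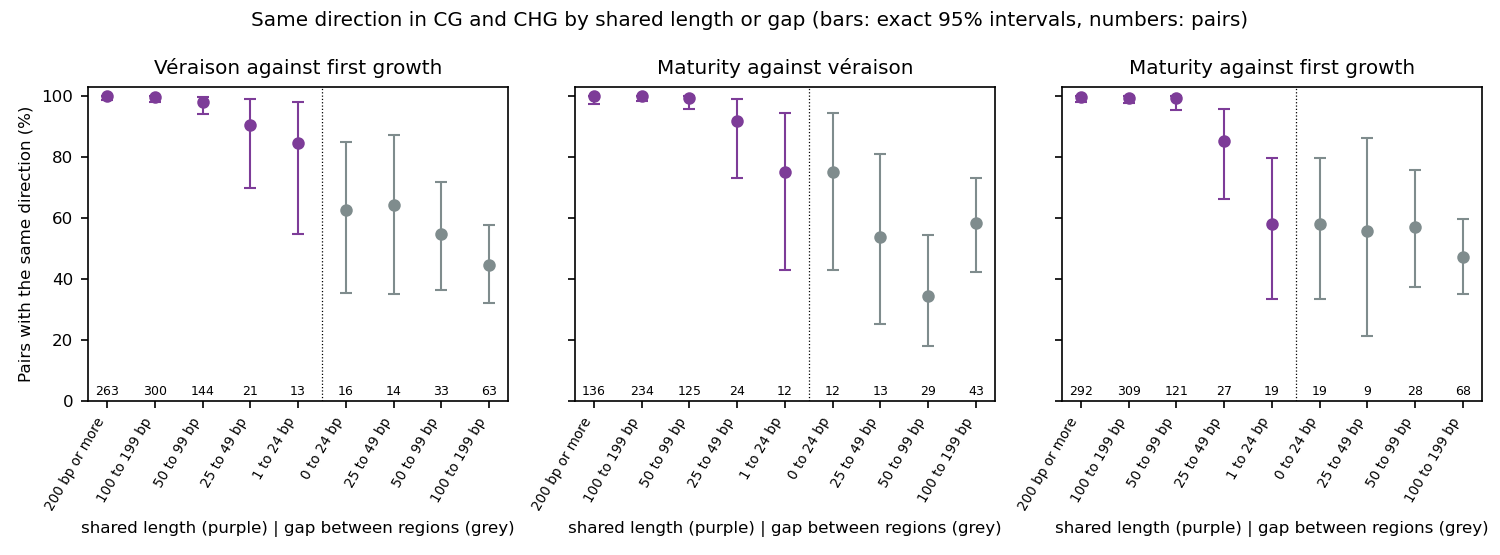
Percent of CG and CHG combinations with the same direction (y axis) by the length they share (purple) or, outside the rule, by the gap between them (grey), with exact 95% intervals as bars and the number of combinations at the foot. Pairs that share 100 bp or more lie between 99.4% and 100%, and combinations separated by 100 bp or more between 44.4% and 58.1%.

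Among the opposite pairs, 18 were lower in CG and higher in CHG in the later library, and 12 the reverse. The one with the largest differences was on chromosome 1, where CG (8301585 to 8301912) was at 24% at véraison and 68% at first growth while CHG (8301865 to 8301910) was at 100% at véraison and 40% at first growth. This CHG region is 46 bp long and lies wholly within the CG region. On chromosome 19, CG in VIT_19s0015g02470.t01 (12363589 to 12363839) was at 68% at véraison and 30% at first growth, and CHG (12363811 to 12363992) at 0% at véraison and 34% at first growth. On chromosome 5, where 102 bp were shared, CG (21527389 to 21527762) was at 50% at maturity and 23% at first growth, and CHG (21527399 to 21527500) at 32% at maturity and 86% at first growth. The other 2 with the largest differences, on chromosome 1 (CG 4182402 to 4182551) and chromosome 15 (CG 16090190 to 16090305), shared 15 and 9 bp.

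CHG regions that had a CG partner lay in gene models less often than CHG regions without one. At véraison against first growth, 33.9% of paired CHG regions (interval 30.3 to 37.6%, n = 667) and 44.4% of unpaired ones (43.2 to 45.5%, n = 7327) overlapped a gene model named anywhere in the tables. At maturity against véraison the shares were 40.5% (36.0 to 45.1%) and 48.3% (47.1 to 49.5%), and at maturity against first growth 33.1% (29.6 to 36.8%) and 45.7% (44.6 to 46.8%). For CG the gap was small and in the other direction: 33.2% of paired regions (29.6 to 36.9%) and 31.1% of unpaired ones (29.6 to 32.6%) overlapped a gene model at véraison against first growth. The CG intervals of paired and unpaired regions also overlapped at maturity, with 41.04% and 39.4% against véraison and 33.8% and 31.3% against first growth.

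The gap in CHG was wide among long regions. Among CHG regions of 400 bp or more, 18.8% of paired ones (interval 10.9 to 29.0%, n = 80) and 60.7% of unpaired ones (57.0 to 64.4%, n = 680) overlapped a gene model at maturity against first growth. At véraison against first growth these shares were 16 of 64 (25%, 15.0 to 37.4%) and 279 of 531 (52.5%, 48.2 to 56.9%). For maturity against véraison 9 of 21 paired regions of that length did (42.9%, 21.8 to 66.0%), compared with 340 of 563 unpaired ones (60.4%, 56.2 to 64.5%). No test across regions was made.

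The gene column in the authors' deposited tables names fewer regions than the overlap of coordinates does. It named a model only where the region's higher coordinate fell inside it, and so left out 117 CG and 61 CHG regions that ran past a model's far end at véraison against first growth. By that column, 31.2% of paired CHG regions (27.7 to 34.9%) and 43.8% of unpaired ones (42.6 to 44.9%) were in a gene model at véraison against first growth, so the order was the same. In regions under 100 bp the order was not seen by that column: 42.7% of paired CHG regions (32.7 to 53.2%) and 36.0% of unpaired ones (33.7 to 38.3%) in that comparison.

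**Figure D4:**
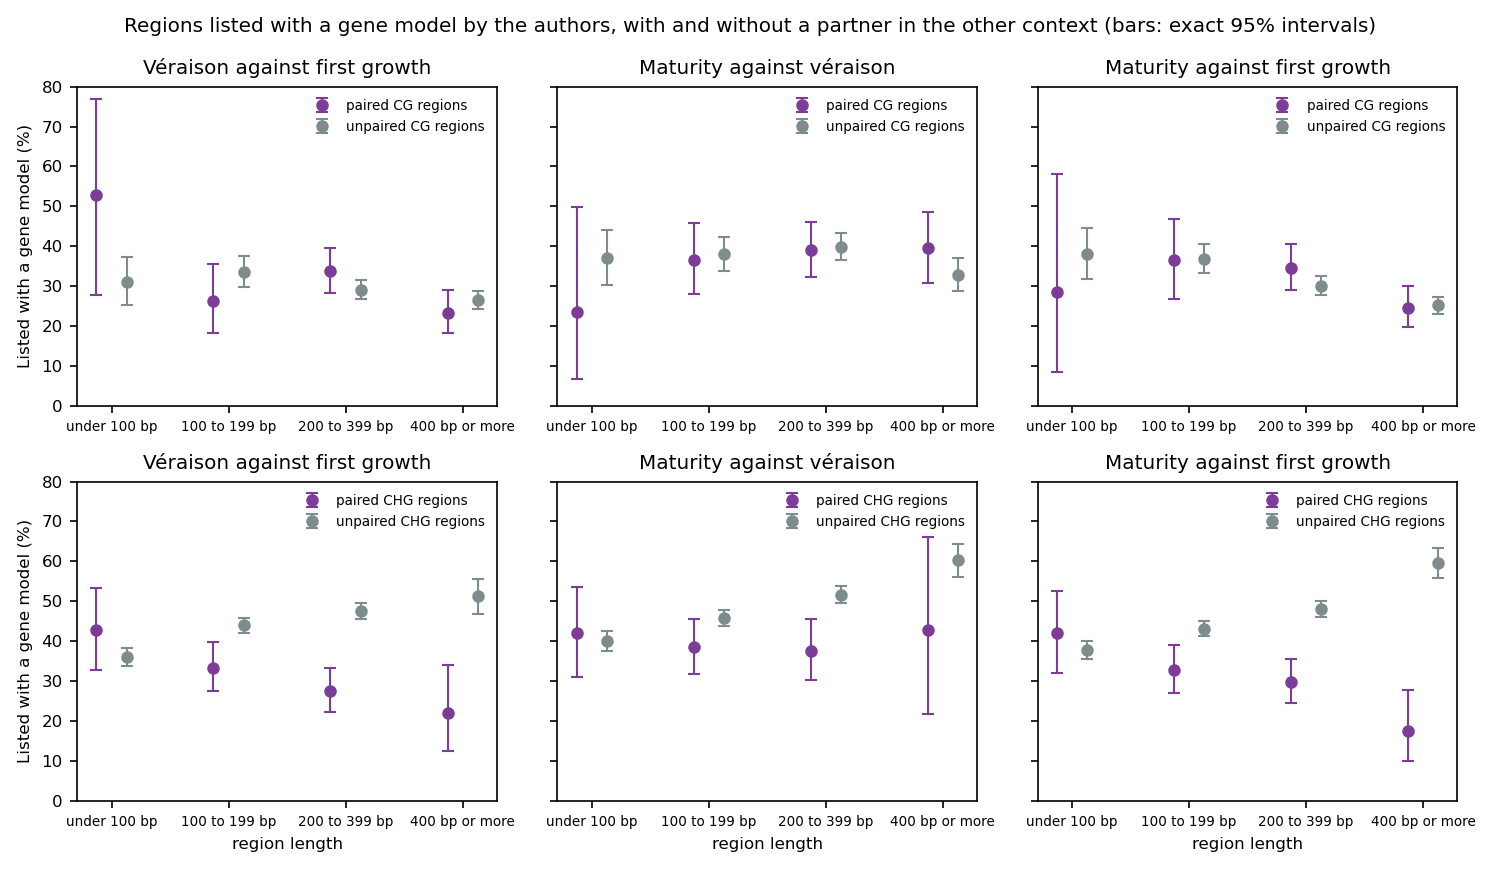
Percent of regions listed with a gene model in the authors' gene column (y axis) by region length (x axis) for CG (upper panels) and CHG (lower panels), with regions that have a partner in the other context in purple and those without in grey; bars are exact 95% intervals. In CHG regions of 200 bp or more the paired regions lie below the unpaired ones in all 3 comparisons, and in CG the intervals overlap at every length.

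Within gene models the paired regions were weighted toward the start. When gene models were divided into 5 equal parts along the direction of transcription, 32.2% of paired CHG regions inside models had their midpoint in the first part at véraison against first growth (interval 26.0 to 39.0%, n = 211), compared with 19.0% of unpaired CHG regions (17.6 to 20.4%, n = 3196). The shares were 35.6% (28.6 to 43.0%) and 19.2% (17.9 to 20.6%) at maturity against véraison, and 33.0% (26.6 to 39.9%) and 17.9% (16.7 to 19.2%) at maturity against first growth. Unpaired CG regions were also frequent in the first part, with 25.5% at véraison against first growth (22.9 to 28.2%), and paired CG regions had 32.8% there (26.3 to 39.8%). In the last part, paired CG regions had 16.2% (11.3 to 22.0%) and unpaired CG regions 29.0% (26.3 to 31.8%). Paired CG regions thus leaned to the start, and unpaired CG regions lay at both ends.

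Upstream of the listed models, within 1000 bp of the start, lay the midpoints of 5.10% of paired CHG regions (3.56 to 7.05%) and 2.55% of unpaired ones (2.20 to 2.94%) at véraison against first growth. At maturity against first growth the shares were 4.63% (3.19 to 6.47%) and 2.77% (2.42 to 3.16%), and at maturity against véraison 4.07% (2.47 to 6.28%) and 2.53% (2.17 to 2.93%). Downstream, in the same order, paired CHG regions also had the larger share: 3.30% and 2.33%, 3.04% and 2.13%, and 2.78% and 2.43%. In CG the upstream shares of paired and unpaired regions were 6.09% and 5.60% at véraison against first growth. They were 5.91% and 5.58% at maturity against first growth, and 3.89% and 5.85% at maturity against véraison. Only models named in the tables were used, so places near other genes count as distant.

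By the authors' gene column, pairs touched 400 of the 9490 gene models named in the tables, and 236 of these had 1 pair. The median length was 3099.5 bp for models with a pair, compared with 5998.5 bp for all named models. Of the 5 models with the most pairs, each with 6, VIT_04s0044g00020.t01 on chromosome 4 (20659987 to 20665809, plus strand) held 3 lower pairs at véraison and 3 at maturity against first growth, with CHG differences of -62 to -45 and -63 to -43 percentage points. VIT_09s0002g03300.t01 on chromosome 9 (3004166 to 3012627, plus strand) held 5 lower pairs at véraison against first growth and 1 at maturity against first growth. VIT_07s0031g01120.t01 on chromosome 7 and VIT_14s0036g00330.t01 on chromosome 14 had no pair at véraison against first growth, and all 6 pairs of each were lower at maturity, against véraison or against first growth. VIT_05s0094g00290.t01, a model of 792 bp on chromosome 5 (23602082 to 23602873, plus strand), held 3 pairs lower at véraison than at first growth and 2 pairs higher at maturity than at véraison. Its CG differences were -17 percentage points at véraison against first growth, 12 at maturity against véraison and -14 at maturity against first growth. Several pairs in a model may share a region: each of these models held its pairs in 1 or 2 places a comparison.

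CHH regions lay on few of the stretches that a CG and a CHG region shared. On lower pairs against first growth, a larger share of these CHH regions was lower than in the tables as a whole. CHH methylation depends on CMT2 and on RNA-directed DNA methylation and is renewed without a template on the other strand. At véraison against first growth, 45 of 741 shared stretches met a CHH region of the same comparison (6.07%). When both regions had to reach the median length of their tables, the share was 11.7%. Over whole regions, 7.80% of CHG regions with a CG partner and 6.01% of those without met a CHH region. For CG regions these shares were 11.7% and 13.2%. The 564 lower pairs met 46 different CHH regions, of which 28 were higher at véraison and 18 were lower (39.1%, interval 25.1 to 54.6%). Of all CHH regions, 0.361% were lower and 99.6% higher. The 169 higher pairs met 8 CHH regions, and 0 of them were lower (0 to 36.9%). As nearly all CHH regions were higher, this count does not set higher pairs apart. Lower CG regions without a CHG partner met 624 CHH regions, with 39 lower (6.25%, 4.48 to 8.45%), and lower CHG regions without a CG partner met 158, with 25 lower (15.8%, 10.5 to 22.5%). These were counted over whole regions, not shared stretches. Over their whole length, lower CG regions with a partner met 100 CHH regions, 19 of them lower (19.0%, 11.8 to 28.1%), and lower CHG regions with a partner met 53, 18 of them lower (34.0%, 21.5 to 48.3%).

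Maturity against first growth gave the same order. Lower pairs met 49 CHH regions on their shared stretches, 26 of them lower at maturity (53.1%, interval 38.3 to 67.5%), compared with 0.579% of all CHH regions. Higher pairs met 17, with 0 lower (0 to 19.5%), and 99.4% of all CHH regions were higher. Lower CG regions without a partner met 598, with 79 lower (13.2%, 10.6 to 16.2%), and lower CHG regions without a partner met 169, with 33 lower (19.5%, 13.8 to 26.3%). Taken over the whole region rather than the shared stretch, lower CG regions with a partner met 99 CHH regions, 32 of them lower (32.3%, 23.3 to 42.5%), and lower CHG regions with a partner met 59, 28 of them lower (47.5%, 34.3 to 60.9%). A CHH region lay on the shared stretch of 55 of 768 pairs (7.16%), and of 12.7% of pairs in which both regions reached the median length. Over whole regions, 8.83% of CHG regions with a partner and 4.99% of those without met a CHH region, and 12.9% and 12.0% of CG regions. Both comparisons use the first growth library. At maturity against véraison, where 68.8% of CHH regions were lower at maturity, lower pairs met 3 CHH regions, all 3 lower, and higher pairs met 5, of which 4 were higher.

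**Figure D5:**
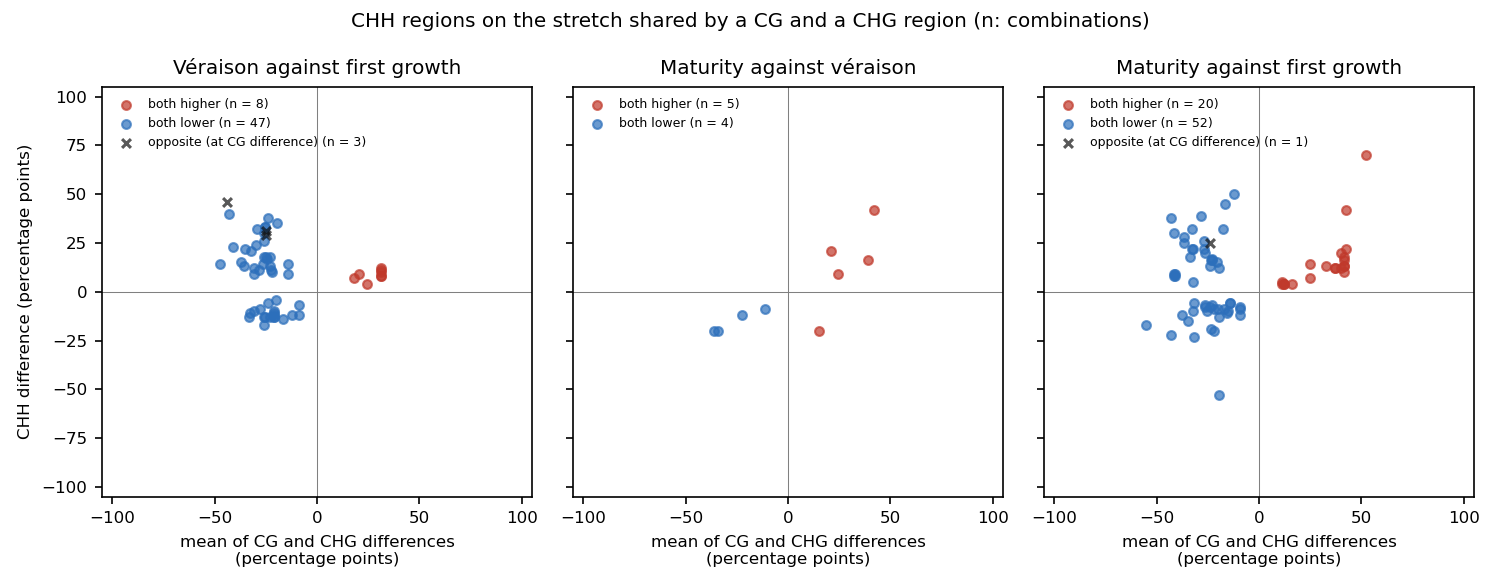
Each point is a CHH region on the stretch shared by a CG and a CHG region, with the mean of the CG and CHG differences (x axis; for opposite pairs the CG difference) and the CHH difference (y axis) in percentage points, later minus earlier stage. Lower pairs (blue) hold CHH regions of both directions against first growth, and higher pairs (red) hold higher CHH regions with 1 exception, at maturity against véraison.

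Lower pairs with a CHH region were split into 2 kinds by the direction of CHH, so the change in CHH was fixed by the split. Where CHH was lower too, the CG and CHG medians were the lower ones in both libraries. At maturity against first growth, combinations in which CHH was lower too had median levels of 7.5% in CG, 7.5% in CHG and 1% in CHH at maturity, and of 30%, 27% and 11.5% at first growth (n = 26). Combinations in which CHH was higher had medians of 26%, 22% and 30.5% at maturity, and of 54%, 50% and 8.5% at first growth (n = 26). At véraison against first growth the medians with lower CHH were 13%, 10% and 2% at véraison and 32%, 32% and 13% at first growth (n = 19). With higher CHH they were 21%, 18.5% and 27.5% at véraison and 50%, 43% and 7.5% at first growth (n = 28). Some regions enter several combinations, a pair can enter both kinds, and no test was made between the 2 kinds.

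Single places show both patterns, chosen after their values were seen. On chromosome 4, CG (4714690 to 4715202) was at 30% at maturity and 63% at first growth, CHG (4714768 to 4715150) at 29% at maturity and 59% at first growth, and CHH (4714854 to 4714952) at 21% at maturity and 44% at first growth. On chromosome 12, in VIT_12s0059g02070.t01 (6865057 to 6866746, plus strand), CG (6866162 to 6866363) was at 38% at maturity and 76% at véraison, CHG (6866118 to 6866543) at 12% at maturity and 46% at véraison, and CHH (6866270 to 6866410) at 4% at maturity and 24% at véraison. At both, all 3 contexts were lower. On chromosome 14, the CHH regions on 1 shared stretch differed in direction: CG (1278336 to 1278715) was at 23% at maturity and 63% at first growth, CHG (1278350 to 1278656) at 22% at maturity and 68% at first growth, but 1 CHH region (1278607 to 1278664) was at 2% at maturity and 24% at first growth and the other (1278422 to 1278463) at 68% at maturity and 30% at first growth. All 3 contexts were higher at a place on chromosome 12, where CG (4988376 to 4988443) was at 100% at maturity and 50% at first growth, CHG (4988378 to 4988485) at 100% at maturity and 46% at first growth, and CHH (4988400 to 4988466) at 73% at maturity and 3% at first growth. On chromosome 17, CG (1356893 to 1357163) was at 69% at maturity and 30% at first growth, CHG (1356892 to 1357192) at 64% at maturity and 18% at first growth, and CHH (1356878 to 1357067) at 43% at maturity and 1% at first growth.

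Pairs were found on all 19 numbered chromosomes in each comparison. CG regions had a CHG partner in 14.7% of cases at véraison against first growth (interval 13.6 to 15.7%), in 18.5% at maturity against véraison (17.0 to 20.1%) and in 14.1% at maturity against first growth (13.1 to 15.1%). The share per chromosome ran from 11.02% on chromosome 16 (7.32 to 15.7%, n = 236) to 19.3% on chromosome 8 (13.9 to 25.6%, n = 187) at véraison against first growth. At maturity against véraison it ran from 11.9% on chromosome 1 (6.82 to 18.9%, n = 126) to 25.8% on chromosome 6 (18.4 to 34.4%, n = 124). These are the extremes of 19 chromosomes, and their intervals overlapped in both comparisons. CG regions under 100 bp had a partner in 6.67% of cases at véraison against first growth (3.93 to 10.5%), and those of at least 200 and under 400 bp in 16.5% (14.8 to 18.3%). Seen from the CHG side, 8.34%, 6.39% and 8.11% of regions had a CG partner. The median difference in size was 22 percentage points in CG regions with a partner and 21 in those without at véraison against first growth, and 22 and 18 at maturity against véraison. CHG regions showed 22 with a partner and 24 without at véraison against first growth. The medians of regions with and without a partner were thus 1 to 4 percentage points apart.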

How the data were processed

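Per the labels' protocols, berry DNA was sonicated, given adaptors and treated with bisulfite, which turns unmethylated cytosine into uracil. The submitters' processing notes name BSMAP 2.73, which aligns bisulfite reads. For the region caller, its filters, the build and the annotation, the sources used here give nothing. Levels stand in the deposited tables as fractions rounded by the authors, per the file headers, and were turned into percent here. The deposited p-values come from the authors' comparison of 2 libraries, reach at most 0.00999823, and go under the name of a chi-square statistic in the files. The tables hold no counts or coverage, so depth, and with it the precision of a level, is unknown.

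Regions with the same bounds in a pair of tables had the same level for the shared library in every case (632 CG and 263 CHG regions for first growth). Overlap, length and gap were computed with both bounds counted as part of a region. Whether the authors count from 0 or 1 is unknown. CHG tables held overlapping neighbours, 117 of them starting 2 bp apart at véraison against first growth, so a merged place may hold several pairs.

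No test was made between single libraries. Shares have exact 95% intervals (SciPy 1.17.1, pandas 2.3.3, Python 3.11.15). For each comparison, the 5 higher and 5 lower places with the largest smaller difference were named. So were the 5 opposite pairs with the largest smaller difference (all would have been named up to 25), the 5 gene models with the most pairs and the places in all 3 comparisons. Members and rules were chosen with earlier results of these data known. Of the 9490 model identifiers, 0 matched the gene list of the reference assembly, so no gene is given a function. Alternatives asked for an overlap of 0.5 of the shorter region, a difference or a length of at least the median, a p of at most the largest one over 10, or a log2 ratio. Using each region once, by longest overlap, and finding gene models by coordinates were added after seeing the data; the gene-model shares in the text are those by coordinates unless the authors' column is named. Region sequences and regions outside the numbered chromosomes were not analysed here.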

Additional observations from a re-analysis of the deposited data

How the results depend on the processing

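With regions of at least their table's median absolute difference, 294 pairs were left for véraison against first growth, and at maturity 253 against véraison and 309 against first growth. With regions of at least the median length, 266, 166 and 275 pairs were left in the same order. Fewer regions enter under both settings. The share of pairs with the same direction was 99.6%, 99.8% and 99.6% when 0.5 of the shorter region had to overlap, and 99.6% and 99.3% among longer regions at véraison and maturity against first growth. Among longer regions the share of pairs higher in both contexts was 13.5% at véraison and 18.5% at maturity against first growth; the cause was not tested. The CHG difference was the larger in 57.8% of longer pairs at maturity against véraison, and in 73.8%, 77.0% and 76.0% of all pairs on the log2 ratio scale, where a lower level weighs more. Of 156 values under the alternatives, 120 stayed within the interval, the quartiles or 1.5 times the count of the value reported. Median differences were 16.5 to 37 percentage points in higher and -34 to -21 in lower pairs. The share of pairs that overlap a gene model was 31.6%, 39.5% and 32.3% by the authors' column and 34.1%, 40.9% and 34.0% by coordinates. By the column it was 20.4%, 26.1% and 21.0% among regions of at least the median difference, and 24.8%, 37.3% and 26.5% among longer regions. No paired analysis was possible because each stage has 1 library. Without replicates or depth, no level has an error.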
